A study of Mus musculus with 6 samples.

Results

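Keratins, small proline-rich proteins, late cornified envelope proteins and the desmosome and cross-linking genes that accompany them were examined in mouse melanoma tumors with and without rigosertib (RGS), a small molecule described as a RAS mimetic, for which several modes of action have been reported. The members were the protein-coding genes of the count table whose symbols match a fixed name pattern: every numbered Krt gene, all Sprr and Lce genes, *Ivl*, *Lor*, *Flg*, *Evpl*, *Ppl*, *Tgm1*, *Tgm3*, *Dsp*, *Pkp1*, *Pkp3*, *Jup*, *Dsc1* to *Dsc3* and *Dsg2* to *Dsg4* where listed. The pattern took 102 of the 40166 genes in the table, of which 20157 were protein-coding. The pattern itself, and the requirement of over 3 counts in at least 1 tumor for a gene to be shown, were chosen by looking at counts in these same 6 tumors, so the comparison of RGS with vehicle below is a description of the members and is not independent support for any direction.

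The data come from bulk RNA sequencing of 6 YUMM3.3 tumors, of which 3 came from mice given H2O as vehicle (tumors 7, 8 and 9) and 3 from mice given RGS (tumors 10, 11 and 12). All mice were C57BL/6 and carried YUMM3.3, a BRAF-mutant mouse melanoma cell line, injected under the skin of the lower back. Both agents were given by oral gavage in 100 µl on 5 days of the week, RGS at 300 mg/kg, and tumors were taken at 17 days of treatment. The labels give neither age nor sex for these mice. The paper puts the age of mice given tumors at 8 to 10 weeks and used both sexes, with females in a YUMM3.3 dose experiment. It does not state the sex of the mice whose tumors were sequenced. The labels also do not say outright that each tumor came from a separate animal. The p-values thus measure the spread between these samples, which may be partly technical. The model is 1 cell line grown under the skin, and a whole tumor holds host cells as well as melanoma cells.

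Total counts ranged from 22793087 to 32555494 in the vehicle tumors and from 13837932 to 21617368 in the RGS tumors, so all vehicle libraries were deeper than all RGS libraries and depth cannot be told apart from treatment. A floor of 3 counts equalled 0.0856 to 0.129 CPM (counts scaled to a common library size with TMM factors) with vehicle and 0.142 to 0.226 CPM with RGS. These floors cover counting error only. Of 8 melanocyte genes checked against the label of melanoma tumor, the pigment genes *Dct*, *Tyr* and *Mlana* had no count in any tumor and *Tyrp1* had at most 2. *Mitf* and *Ednrb* were detected in all 6 tumors, *Pmel* in 4 and *Sox10* in RGS tumor 11 only. The pan-leukocyte marker *Ptprc* had no count in any tumor, whereas *Laptm5* and *Cd68* were detected in all 6.

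Keratins are the intermediate filaments of epithelial cells and work as pairs of a type I and a type II protein, with *Krt5* and *Krt14* in basal keratinocytes, *Krt1* and *Krt10* in the layers above and *Krt8* and *Krt18* in simple epithelia. As keratinocytes mature, involucrin, loricrin, small proline-rich and late cornified envelope proteins are cross-linked by transglutaminases beneath the plasma membrane, on a scaffold of plakins and desmosomes. The result is the cornified envelope, the barrier layer of skin. Melanoma cells come from melanocytes and are not keratinocytes, and several keratins and small proline-rich proteins are also known from injured or stressed epithelia.

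Promoter sequences are shown for 6 genes that carry the differences described below, because the start regions of the genes higher with RGS shared some letters. Each is the 250 bases before the RefSeq gene start, on the strand of the gene (GRCm38.p6), read 5′ to 3′. Capitals mark TGANTCA, the recognition letters of AP-1 (the JUN and FOS family of transcription factors), and TATAAA, the core of the TATA box, each searched on both strands.
Ivl (chr3:92573736-92573985, minus strand): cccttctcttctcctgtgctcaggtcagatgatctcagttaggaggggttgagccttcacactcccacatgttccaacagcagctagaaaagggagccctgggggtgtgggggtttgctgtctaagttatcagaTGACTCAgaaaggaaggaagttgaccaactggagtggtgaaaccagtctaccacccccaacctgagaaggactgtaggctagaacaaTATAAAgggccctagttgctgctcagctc
Sprr1a (chr3:92485882-92486131, minus strand): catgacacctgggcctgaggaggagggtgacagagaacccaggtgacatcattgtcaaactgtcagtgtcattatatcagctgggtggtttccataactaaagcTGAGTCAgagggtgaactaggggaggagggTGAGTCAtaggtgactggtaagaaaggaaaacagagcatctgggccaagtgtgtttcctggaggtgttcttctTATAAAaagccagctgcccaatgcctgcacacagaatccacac
Sprr2i (chr3:92407741-92407990, plus strand): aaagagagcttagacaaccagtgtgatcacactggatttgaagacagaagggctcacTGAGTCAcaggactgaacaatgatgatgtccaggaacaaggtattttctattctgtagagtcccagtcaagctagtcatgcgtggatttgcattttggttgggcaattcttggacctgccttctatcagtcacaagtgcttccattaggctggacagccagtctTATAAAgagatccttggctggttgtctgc
Krt20 (chr11:99438154-99438403, minus strand): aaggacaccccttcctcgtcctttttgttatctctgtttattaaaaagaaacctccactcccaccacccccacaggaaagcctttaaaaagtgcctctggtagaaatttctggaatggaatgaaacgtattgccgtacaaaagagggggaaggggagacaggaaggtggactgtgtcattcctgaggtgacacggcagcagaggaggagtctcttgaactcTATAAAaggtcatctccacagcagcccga
Krt12 (chr11:99422260-99422509, minus strand): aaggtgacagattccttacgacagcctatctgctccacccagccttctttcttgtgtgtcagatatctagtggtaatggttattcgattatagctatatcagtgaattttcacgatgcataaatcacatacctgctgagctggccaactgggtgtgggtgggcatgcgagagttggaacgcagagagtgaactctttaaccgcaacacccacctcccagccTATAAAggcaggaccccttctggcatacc
Krt76 (chr15:101892921-101893170, minus strand): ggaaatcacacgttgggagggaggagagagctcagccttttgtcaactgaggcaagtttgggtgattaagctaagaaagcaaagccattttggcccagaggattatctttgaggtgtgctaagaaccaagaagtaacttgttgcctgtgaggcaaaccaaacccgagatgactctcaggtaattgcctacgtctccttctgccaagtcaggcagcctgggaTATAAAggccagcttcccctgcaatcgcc

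All 6 of these promoters hold TATAAA, and in 5 of them it lies 29 to 24 bases before the RefSeq start, from which all positions here are counted. The start in the GENCODE M21 annotation lies at -14 from it in *Sprr1a* and at 3 in *Krt20*. Positions shared between genes thus depend on the start chosen. The *Ivl* promoter has the AP-1 letters from -116 to -110, and that of *Sprr1a* has them from -116 to -110 and again from -146 to -140. In *Sprr2i* they lie from -193 to -187. The keratin promoters shown have no such letters in this window, which says nothing about the factor itself. *Krt16* and *Krt80* had no entry in the RefSeq promoter table.

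Most members were silent. Among the 102 members, 54 were at 0 in all tumors, another 15 reached at most 3 counts, and 33 were over 3 counts in at least 1 tumor. The genes just outside this limit were *Sprr1b*, with 3 counts in RGS tumor 12 only, and *Krt5* and *Krt26*, with at most 2 counts in any tumor. Just inside it were *Krt8*, with 4 counts in vehicle tumor 7 only, *Krt33b*, with 4 counts in RGS tumor 12 only, and *Krt15* and *Krt87*, which reached 5. The highest count of *Krt14* was 1. *Krt1*, *Krt2*, *Krt6a*, *Krt6b* and *Flg* had none, so the defining keratins of the basal and upper epidermis, apart from *Krt10*, were at or near 0 in both groups.

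Of the 33 genes over 3 counts, 22 passed the filter of the test (a median of 5 counts or more with vehicle or with RGS), which 15355 genes of the table passed. With edgeR's quasi-likelihood test, p adjusted by Benjamini-Hochberg over all 15355 genes and a threshold of 0.05, 8 members were higher with RGS, where 16.3% of all tested genes were, and 1 was lower, where 16.5% were. The CPM values of the groups did not overlap for 8 of the 22, against 45.8% of all tested genes. The members were chosen on this contrast, and a gene silent in vehicle tumors could pass the filter only through its RGS tumors. For these reasons, nothing is read from these shares or from the medians given next, and the use of lower bounds there does not remove this limit. The median log2 fold change of the 22 was 2.05, or 1.75 with the 5 members that were silent in vehicle tumors put at their lower bounds, and that of all tested genes was -0.05.

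**Figure D1:**
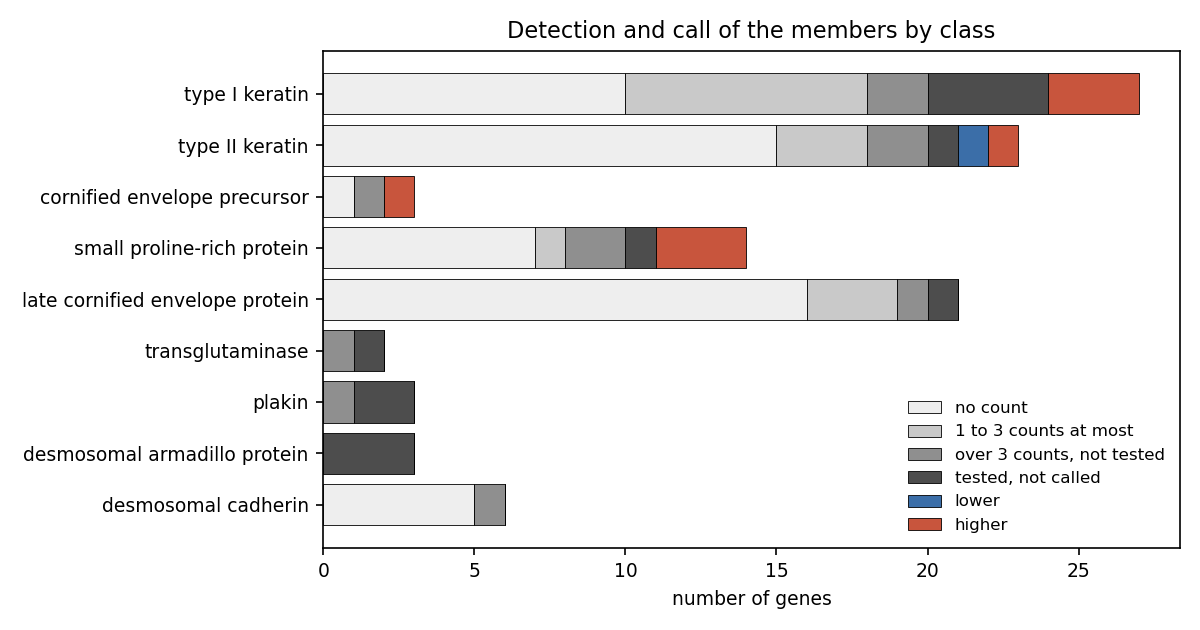
Number of member genes (horizontal axis) in each class, split by detection and call: no count, at most 1 to 3 counts, over 3 counts but not tested, tested and not called, lower, and higher with RGS. The 21 late cornified envelope genes are almost all silent, while 3 of 27 type I keratins and 3 of 14 small proline-rich genes are in the higher segment.

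*Krt20*, a type I keratin of intestinal epithelium, urothelium and Merkel cells, had the highest count of all members in each RGS tumor, while in the vehicle tumors *Jup* or *Pkp3* did. Its counts were 369, 447 and 265 in vehicle tumors 7, 8 and 9 and 2201, 1330 and 2277 in RGS tumors 10, 11 and 12. This corresponds to 12.6 ± 2.90 CPM (SD, n = 3) with vehicle and 114.5 ± 21.5 CPM with RGS, a ratio of means of 9.08. Every RGS tumor lay above every vehicle tumor. In bulk tumors, more or fewer cells of a type and more or less RNA per cell cannot be told apart. The log2 fold change was 3.18 with a standard error of 0.21 (adjusted p = 2.51e-09), and it stayed between 2.93 and 3.41 in every alternative run.

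*Krt12*, best known as the keratin of the corneal epithelium, had 7, 13 and 16 counts with vehicle and 88, 89 and 108 with RGS. Its level was 0.450 ± 0.244 CPM with vehicle and 5.82 ± 1.44 CPM with RGS (log2 fold change 3.70 with a standard error of 0.67, adjusted p = 3.16e-04), with no overlap between groups. In GENCODE M21, 54.4% of the exonic bases of *Krt12* overlap *A830036E02Rik* on the opposite strand, and 35.6% of its windows of 75 bases also occur in that gene. The strand setting of the counting is not given in the sources used here, so reads of the pair cannot be told apart. *A830036E02Rik* itself was given 0, 0 and 7 counts with vehicle and 0, 14 and 36 with RGS, always fewer than *Krt12*.

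The 2 other keratins that were higher had no count in any vehicle tumor. *Krt76*, a type II keratin of the oral mucosa, had 56, 84 and 97 counts with RGS (4.97 ± 2.02 CPM), at least 46.4-fold above the floor of the vehicle tumors (adjusted p = 1.29e-05). *Krt16*, a type I keratin induced in wounded and thickened epidermis, had 21, 8 and 37 counts with RGS (1.29 ± 0.868 CPM), at least 12.01-fold above that floor (adjusted p = 0.00473). All 3 RGS tumors were thus above all vehicle tumors for both genes. Of the 75-base windows of *Krt16*, 28.9% occur elsewhere, in *Krt14* or the pseudogene *Gm11597*, so its exact count is uncertain, and for *Krt76* the share was 1.65%. The partner keratins usually found with *Krt16*, *Krt6a* and *Krt6b*, had no count in any tumor.

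*Krt80*, a type II keratin found in many epithelia, went the other way. It had 170, 102 and 44 counts with vehicle and 17, 4 and 4 with RGS (3.46 ± 1.49 and 0.450 ± 0.308 CPM), and the lowest vehicle tumor lay above the highest RGS tumor. The log2 fold change was -2.90 with a standard error of 0.83 (adjusted p = 0.0116). This call rested on the vehicle tumors: without vehicle tumor 7 the adjusted p was 0.0869 (log2 fold change -2.58), and without vehicle tumor 8 it was 0.0632 (-2.84).

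Keratins of simple and stratified epithelia that were tested and not called had low counts that overlapped between groups. *Krt10*, of the upper epidermis, had 14, 26 and 38 counts with vehicle and 18, 34 and 22 with RGS (log2 fold change 0.68, adjusted p = 0.634). *Krt13*, of internal stratified epithelia, had 12, 55 and 38 against 24, 41 and 45 (0.82, adjusted p = 0.497). *Krt19*, of ducts and simple epithelia, had 32, 15 and 30 against 14, 42 and 12 (0.73, adjusted p = 0.626). None of these genes separated the groups. *Krt18* was found in vehicle tumors 7 and 8 and RGS tumors 11 and 12, with at most 15 counts, and *Krt7* had at most 20 counts, in vehicle tumor 7. The partner of *Krt18*, *Krt8*, had 4 counts in vehicle tumor 7 and none elsewhere.

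**Figure D2:**
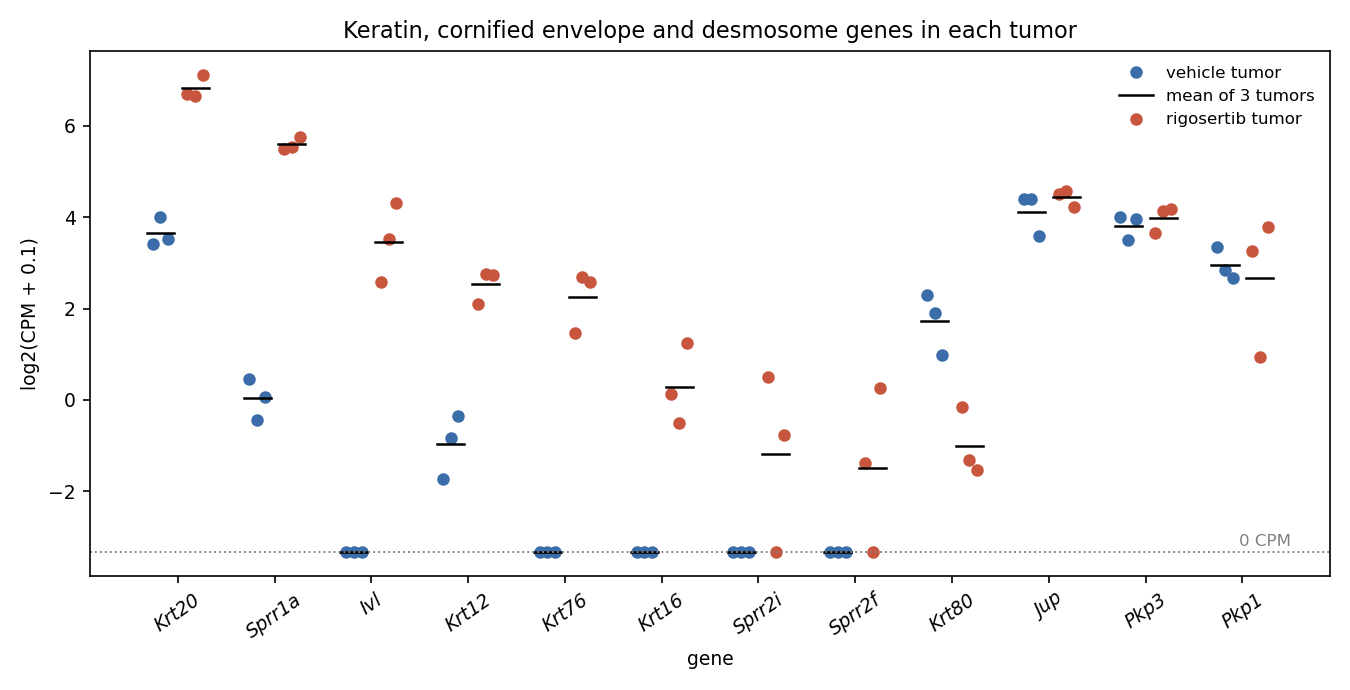
Level of 12 members in each tumor, as log2(CPM + 0.1) on the vertical axis, with vehicle tumors in blue, RGS tumors in red and a bar at the mean of 3 tumors. The dotted line is 0 CPM: Ivl, Krt76 and Krt16 lie on it in all vehicle tumors and above it in all RGS tumors, while Jup, Pkp3 and Pkp1 overlap between groups.

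Among the envelope precursors, *Ivl* (involucrin), an early substrate of cross-linking, had no count in any vehicle tumor and 124, 151 and 321 counts in the RGS tumors. Its level with RGS was 12.3 ± 6.93 CPM, at least 114.7-fold above the floor of the vehicle tumors (adjusted p = 1.50e-07). The values of the RGS tumors spread widely, from 5.87 to 19.6 CPM, but all were above the vehicle tumors. No 75-base window of *Ivl* occurs in another gene. *Lor* (loricrin), the main late precursor, was not tested: it had 30 counts in RGS tumor 12, 1 in RGS tumor 10 and none elsewhere. *Flg* (filaggrin) had no count.

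*Sprr1a*, a small proline-rich protein that is cross-linked into the envelope and is also induced in injured tissue, was near 1 CPM with vehicle and among the most abundant members with RGS. Its counts were 45, 18 and 22 with vehicle and 954, 618 and 884 with RGS. The level was 0.957 ± 0.322 CPM with vehicle and 48.6 ± 4.80 CPM with RGS, a ratio of means of 50.8. The groups were far apart and the RGS tumors lay close together. The log2 fold change was 5.64 with a standard error of 0.29 (adjusted p = 9.27e-11), and its range over the alternatives was 5.44 to 6.02. Its nearest relative, *Sprr1b*, reached 3 counts in RGS tumor 12 and 0 elsewhere.

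The Sprr2 genes, close copies that lie side by side, had no count in vehicle tumors apart from 7 counts of *Sprr2e* in vehicle tumor 9, and their counts with RGS were few and uneven. *Sprr2i* had 28, 0 and 8 counts with RGS, and its mean CPM there was 5.65-fold the mean vehicle floor (adjusted p = 0.0258). *Sprr2f* had 6, 0 and 18, with a mean CPM 4.31-fold that floor (adjusted p = 0.0375). For both, RGS tumor 11 was at 0 like the vehicle tumors, so the groups overlapped. The call of *Sprr2i* was lost without RGS tumor 12 (adjusted p = 0.0764) and without vehicle tumor 7, 8 or 9 (0.0841 to 0.127), and without RGS tumor 10 the gene did not pass the filter. The call of *Sprr2f* was lost without RGS tumor 10 (0.0985) or 11 (0.0596) and without any vehicle tumor (0.137 to 0.186), and without RGS tumor 12 it did not pass the filter. *Sprr2f* was also not called by DESeq2 (0.0505), by voom (0.0695) or with no filter on low counts (0.0741).

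*Sprr2e* had 33, 2 and 7 counts with RGS and was not called (log2 fold change 2.85, adjusted p = 0.214), although voom called it (0.0203). *Sprr2h*, with 35, 0 and 3 counts with RGS, and *Sprr2a2*, with 20 in RGS tumor 11 alone, did not pass the filter. Of the windows of *Sprr2a2*, 94.7% occur in *Sprr2a1* or *Sprr2a3*, so its reads could belong to any of the 3 copies. Across *Sprr2e*, *Sprr2f*, *Sprr2h* and *Sprr2i*, RGS tumor 11 was at or near 0 while RGS tumors 10 and 12 held nearly all counts, whereas *Sprr2a2*, *Sprr1a* and *Ivl* had counts in RGS tumor 11. RGS tumor 11 was also the shallowest library, and the part of depth in this was not tested.

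Of the late cornified envelope genes, *Lce1g* alone was tested. It had 9 counts in vehicle tumor 9, none in vehicle tumors 7 and 8, and 21, 39 and 5 counts with RGS (log2 fold change 3.45 with a standard error of 1.62, adjusted p = 0.110). It was called by voom (0.00227) and when vehicle tumor 9 was left out (0.0102). *Lce3c* had 7 counts in RGS tumor 10 and 1 in RGS tumor 11. The other 19 Lce genes reached at most 1 count.

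The cross-linking enzyme *Tgm1* (transglutaminase 1) had 1, 8 and 9 counts with vehicle and 39, 23 and 16 with RGS. The groups did not overlap, and the ratio of mean CPM was 6.51, but the gene was not called (adjusted p = 0.102). DESeq2 (0.0355) and voom (0.0191) did call it. *Tgm3* had 9 counts in vehicle tumor 9 and at most 1 elsewhere. The scaffold plakins were low and uneven: *Evpl* (envoplakin) had 1, 31 and 6 counts with vehicle and 5, 12 and 2 with RGS, and *Ppl* (periplakin) had 24, 3 and 25 with vehicle and 24 in RGS tumor 10 alone. *Dsp* (desmoplakin), which anchors keratins to desmosomes in all epithelia, had 12 counts in vehicle tumor 7 and none elsewhere.

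Desmosome plaque proteins of the armadillo family were detected in every tumor, and their values overlapped between groups. *Jup* (plakoglobin), which also serves adherens junctions, had 731, 588 and 277 counts with vehicle and 479, 315 and 303 with RGS, or 17.9 ± 5.19 and 21.6 ± 2.74 CPM (log2 fold change 0.27 with a standard error of 0.26, adjusted p = 0.451). *Pkp3* (plakophilin 3) was at 14.2 ± 2.55 and 16.0 ± 3.06 CPM (0.17 with a standard error of 0.27, adjusted p = 0.666). *Pkp1* (plakophilin 1) had 352, 199 and 146 counts with vehicle and 201, 24 and 225 with RGS, so that RGS tumor 11 was the lowest of the 6 and RGS tumor 12 the highest in CPM (0.10 with a standard error of 0.49, adjusted p = 0.894). None was called, which does not show that their levels were equal. The membrane partners of these proteins were almost absent: *Dsg2* had 7 counts in vehicle tumor 7 only, and *Dsc1*, *Dsc2*, *Dsc3*, *Dsg3* and *Dsg4* had none.

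The make-up of the group is given as a description, since the members were chosen on these same counts. Per kilobase of gene length, a scale on which genes can be compared, the highest mean levels with vehicle were 6.54 CPM per kb for *Krt20*, 3.91 for *Pkp3*, 2.78 for *Jup*, 1.55 for *Pkp1* and 1.19 for *Sprr1a*. With RGS they were 60.3 CPM per kb for *Sprr1a* and 59.4 for *Krt20*, whose tumors overlapped on this scale, followed by 6.39 for *Ivl*, 4.41 for *Pkp3* and 3.36 for *Jup*. The summed CPM of all 102 members was 67.9, 65.2 and 56.4 in vehicle tumors 7, 8 and 9 and 220.8, 232 and 289.98 in RGS tumors 10, 11 and 12. *Jup*, *Pkp1* and *Pkp3* together made 59.5 to 68.8% of this sum with vehicle and 17.4 to 20.2% with RGS, although their own summed CPM overlapped (33.6 to 46.8 and 42.9 to 50.3). *Krt20* and *Sprr1a*, the highest members with RGS per kilobase, together made 17.4 to 25.4% with vehicle and 63.1 to 67.6% with RGS. Part of this contrast follows from setting apart the members that were highest with RGS. The remaining members summed to 9.36 to 10.5 CPM with vehicle and 26.9 to 46.4 CPM with RGS.

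**Figure D3:**
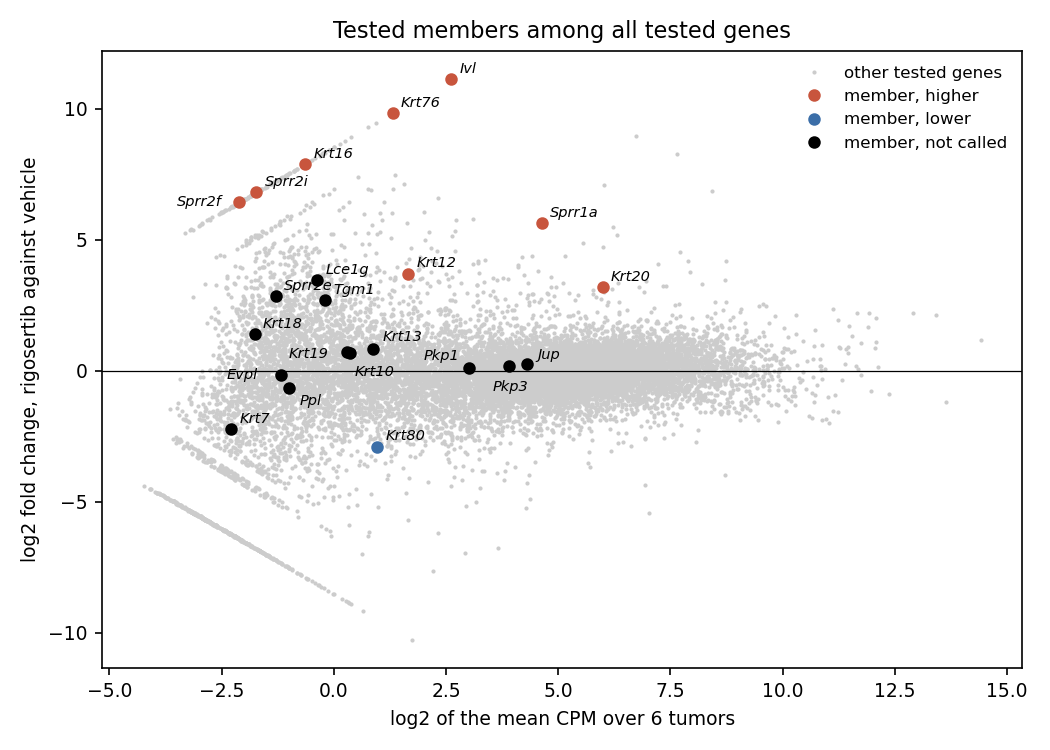
Log2 fold change of RGS against vehicle (vertical axis) against log2 of the mean CPM over 6 tumors (horizontal axis) for the 22 tested members among all 15355 tested genes. Krt20 and Sprr1a combine a high level with a large difference, whereas Ivl, Krt76, Krt16, Sprr2i and Sprr2f lie on the upper edge formed by genes with no count in any vehicle tumor, where the fitted value depends on the prior count.

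Nearly all keratin genes sit in 2 clusters, and the envelope genes in the epidermal differentiation complex. The type I cluster spans chr11:99232761-100269871 and holds 47 protein-coding genes, of which 26 are members. Of these, 8 were over 3 counts, 6 were tested and 3 were higher. *Krt12* and *Krt20* are neighbors there, while *Krt16* lies near the far end. Between *Krt20* and *Krt16* lay silent keratins, but also *Krt13* and *Krt19*, which were tested and not called. None of the 21 other genes of the interval was tested.

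The type II cluster (chr15:101347444-102032027) holds 24 members among 26 protein-coding genes. Of these, 6 were over 3 counts and 4 were tested, with *Krt76* higher and *Krt80*, at the edge of the cluster, lower. In the epidermal differentiation complex (chr3:92080271-93293686), 10 of 38 members were over 3 counts, 6 were tested and 4 were higher. Among its 12 other genes, *Crct1* had 4, 16 and 13 counts with vehicle and 0 with RGS (adjusted p = 0.0451), a call lost when any tumor was left out (0.0931 to 0.225), and *Gm9774* did not differ beyond its spread (adjusted p = 0.644). In both of these intervals genes were called in both directions.

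**Figure D4:**
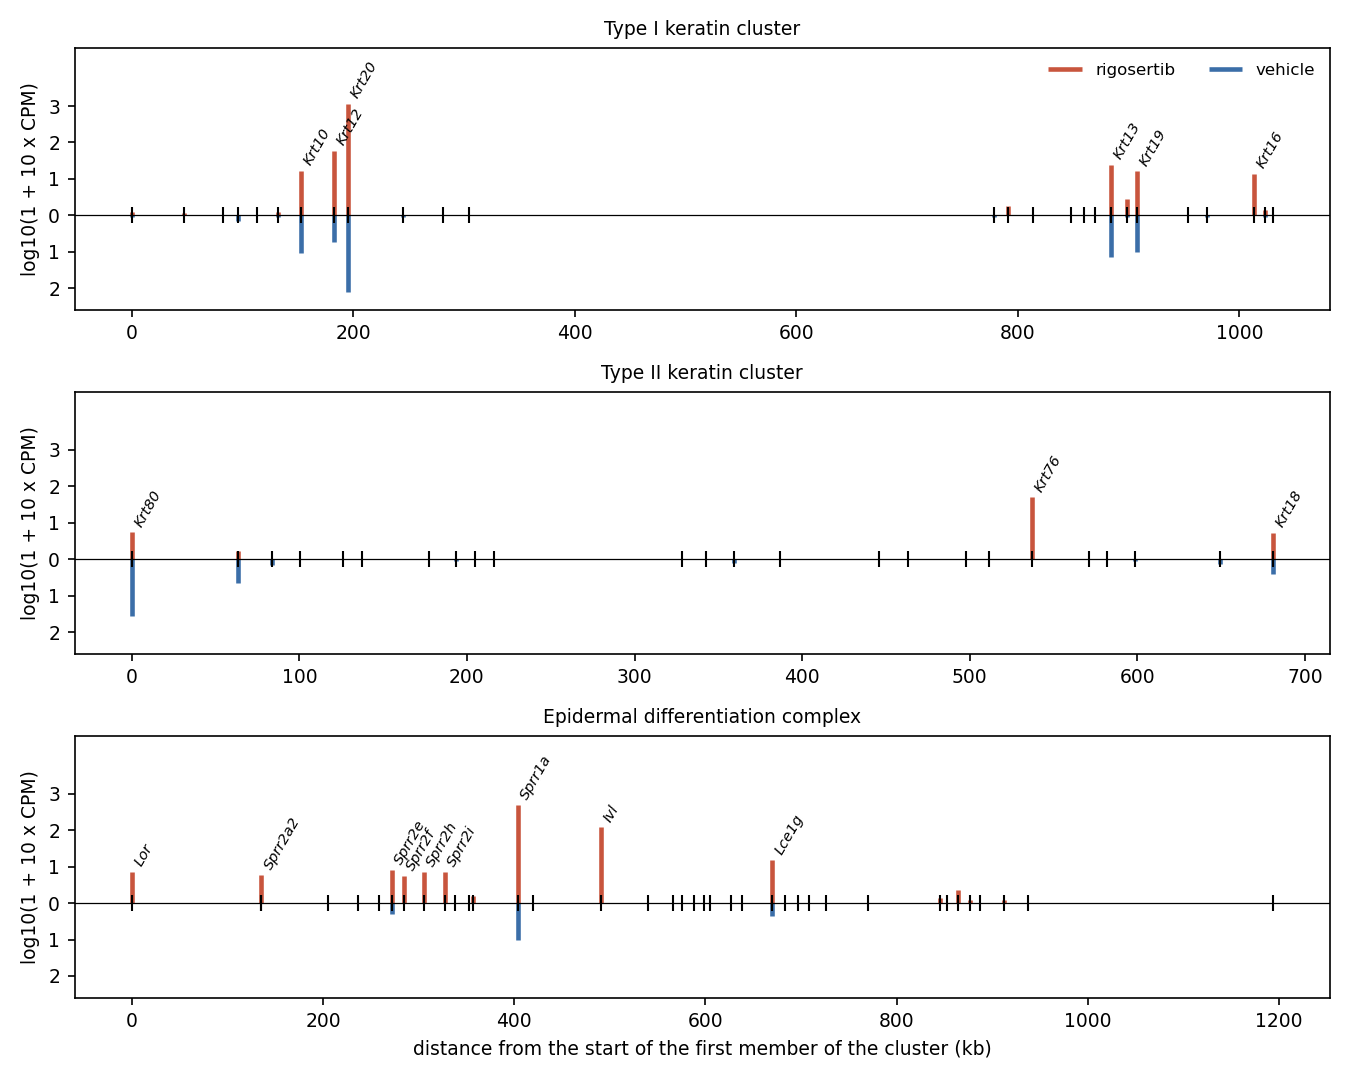
Mean level of each member along the type I keratin cluster, the type II keratin cluster and the epidermal differentiation complex, with distance from the start of the first member in kb on the horizontal axis and log10(1 + 10 × CPM) on the vertical axis, RGS upward in red and vehicle downward in blue. Ticks mark every member, and most have no visible bar. Krt76 and Ivl stand between silent members, whereas Krt12 stands between Krt10 and Krt20, and Sprr2f between Sprr2e and Sprr2h.

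Promoter letters were counted in the 15 of 22 tested members that had a RefSeq promoter of 250 bases. TATAAA occurred in 7 of the 7 higher members and in 2 of the 8 not called, compared with 12.4% of all 32851 promoters. It also occurred in 19 of the 51 members that reached at most 3 counts and had a promoter, with members on chromosome 18 left out. A member with several promoters was counted once if any matched, whereas the shares of all promoters are per promoter. The windows of the higher and not called members are also not alike. In the higher members the GENCODE M21 start lay between -14 and 3 from the RefSeq start. Among those not called it lay at -1360 in *Krt7*, at -434 and -838 in *Tgm1* and at -989 for a promoter of *Krt13*. TGANTCA, the AP-1 letters, occurred in 4 of the 7 higher members (*Ivl*, *Sprr1a*, *Sprr2f* and *Sprr2i*) and in 2 of the 8 not called (*Krt13* and *Sprr2e*). It occurred in 5 of the same 51 members, compared with 6.75% of all promoters. The Sprr2 genes are close copies and are not independent examples. GGAATG, the letters of the TEAD factors, was found in the higher set in *Krt20* alone, with 3 matches, of which 2 share a base. It was also found in 1 of the 8 not called (*Lce1g*) and in 8 of the same 51 members, where 12.6% of all promoters have it. AACCNGTT of the grainyhead-like factors (1.79% of all promoters) and TGACGTCA, the cyclic AMP response element (1.55%), occurred in none of the 15. All motifs were searched on both strands, and a match is a description of letters, not a binding site.

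Genes outside the name pattern that epidermis also uses were followed in 6 lists with 166 genes, of which 161 were in the table and 82 were tested. Of these, 26 were higher, 9 were lower and 47 were not called, with a median log2 fold change of 0.44. Over all tested genes, 16.3% were higher and 16.5% lower, with a median of -0.05. The lists were chosen with earlier results of these tumors known, so nothing particular to them is read from these counts. *Trp63*, the transcription factor that defines keratinocyte identity, had no count in any tumor. *Dsg1b* and *Dsg1c* had none, *Dsg1a* had 9 counts in vehicle tumor 8 only, and the epithelial adhesion genes *Cdh1* (5, 0 and 0 with vehicle, 18, 3 and 0 with RGS) and *Epcam* (0 with vehicle, 38, 0 and 1 with RGS) were low and overlapped between groups.

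The cornification list (49 genes, 17 tested) had 4 higher, 3 lower and 10 not called, with a median log2 fold change of 0.38. *Cdsn* (corneodesmosin), an adhesive protein of the cornified layer, had 10591, 6268 and 3996 counts with vehicle and 229, 165 and 178 with RGS. At 232 ± 65.7 and 11.4 ± 0.903 CPM, it fell by 4.35 on the log2 scale (adjusted p = 4.64e-11), and the groups were far apart. Of the kallikrein proteases, some of which cut such proteins, *Klk6* and *Klk7* had no count with vehicle. *Klk6* had 9, 27 and 23 counts with RGS (adjusted p = 0.00509) and *Klk7* had 18, 8 and 3 (adjusted p = 0.0199, lost when any tumor was left out, 0.0551 to 0.141). *Klk8*, with 2, 8 and 0 counts with vehicle and 15, 11 and 32 with RGS (log2 fold change 3.28, adjusted p = 0.0999), and *Klk10*, with 2, 7 and 9 against 3, 0 and 0 (-2.01, adjusted p = 0.412), were not called. *Klk5*, *Klk11* and *Klk13* had no count. *S100a11* (log2 fold change 0.82, adjusted p = 0.00204) and *Sult2b1*, which makes cholesterol sulfate (2.81, adjusted p = 0.0113), were higher, and *Anxa1* was lower (-0.64, adjusted p = 0.0104). The call of *Sult2b1* was lost without RGS tumor 11 (0.0748) and that of *Anxa1* without RGS tumor 10 (0.0751). *Sult2b1* shares 6.15% of its exonic bases with *Lmtk3* on the opposite strand.

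In the list of keratinocyte transcription factors (29 genes, 16 tested), 4 were higher, 2 lower and 10 not called (median 0.35). *Tfap2a* rose by 0.96 on the log2 scale (adjusted p = 2.07e-04), *Klf5* by 0.90 (adjusted p = 2.92e-04) and *Cebpb* by 0.86 (adjusted p = 2.42e-04). *Klf4*, a barrier factor, was lower (-0.64, adjusted p = 0.00294), as was *Notch3* (-1.27, adjusted p = 0.00519). *Cebpb* shares 20.7% of its exonic bases with *Tmem189* on the opposite strand.

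The list of epithelial junctions (33 genes, 18 tested) had 5 higher, 2 lower and 11 not called, with a median of -0.52. The claudins of tight junctions that were called were *Cldn23*, with 18, 13 and 0 counts with vehicle and 270, 184 and 159 with RGS (log2 fold change 5.13, adjusted p = 6.55e-06), *Cldn4*, with 18, 12 and 27 counts in RGS tumors only (adjusted p = 0.00538), and *Cldn3*, with 6, 4 and 14 in RGS tumors only (adjusted p = 0.0239, lost when any tumor was left out, 0.0726 to 0.168). *Cldn1* had 62, 48 and 59 counts with vehicle and 13, 0 and 0 with RGS, without overlap, and was not called (-3.17, adjusted p = 0.0668). Another tight junction gene, *Ocln*, was also not called (-1.49, adjusted p = 0.0932), and its groups did not overlap. *Ctnnd1*, the p120 catenin, was also higher (1.67, adjusted p = 1.37e-06) but shares 61.2% of its exonic bases with *Gm28635* on the same strand. *Cdsn* is on this list too, and *Cxadr* was lower (-1.24, adjusted p = 0.00781) and shares 9.39% of its exonic bases with *Btg3* on the opposite strand.

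Of the hemidesmosome and basement membrane genes (13, of which 12 were tested), 5 were higher, 1 was lower and 6 were not called (median 0.56). *Itga3* (log2 fold change 1.55, adjusted p = 1.41e-06) and the anchoring fibril collagen *Col7a1* (2.01, adjusted p = 1.76e-05) were higher. *Dst* (0.60, adjusted p = 0.0106) lost its call without RGS tumor 11 (0.0509) or vehicle tumor 8 (0.0551). *Col17a1*, with 0, 2 and 0 counts with vehicle and 22, 27 and 1 with RGS (adjusted p = 0.0344), overlapped between groups and lost its call without any tumor but RGS tumor 12 (0.0555 to 0.191).

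The hair follicle list (17 genes, 9 tested) had 2 higher, *Lgr6* (log2 fold change 2.73, adjusted p = 4.79e-07) and *Sox9* (1.47, adjusted p = 1.53e-06), 1 lower, *Wnt10b* (-1.40, adjusted p = 0.00784, and 0.0556 without vehicle tumor 9), and 6 not called (median 0.44). In the list of activated keratinocytes (26 genes, 21 in the table, 11 tested), 6 were higher, 1 was lower and 4 were not called (median 0.79). *Areg* (amphiregulin), a ligand of the EGF receptor that keratinocytes release, had 1023, 909 and 922 counts with vehicle and 9676, 5748 and 7943 with RGS, a separation of 33.7 ± 5.35 from 459 ± 26.5 CPM (log2 fold change 3.77, adjusted p = 1.74e-11). *Ereg*, a related ligand, was higher by less (0.59, adjusted p = 0.00556, and 0.0512 without RGS tumor 12). The protease inhibitor *Slpi* was higher (3.77, adjusted p = 0.00745), as was the cytokine *Il1a* (4.57, adjusted p = 0.0158, lost without RGS tumor 11 or 12 or vehicle tumor 7 or 8, 0.0593 to 0.0941). *S100a7a* was lower (-1.58, adjusted p = 0.0303, and 0.0618 without RGS tumor 12 or 0.166 without vehicle tumor 8).

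**Figure D5:**
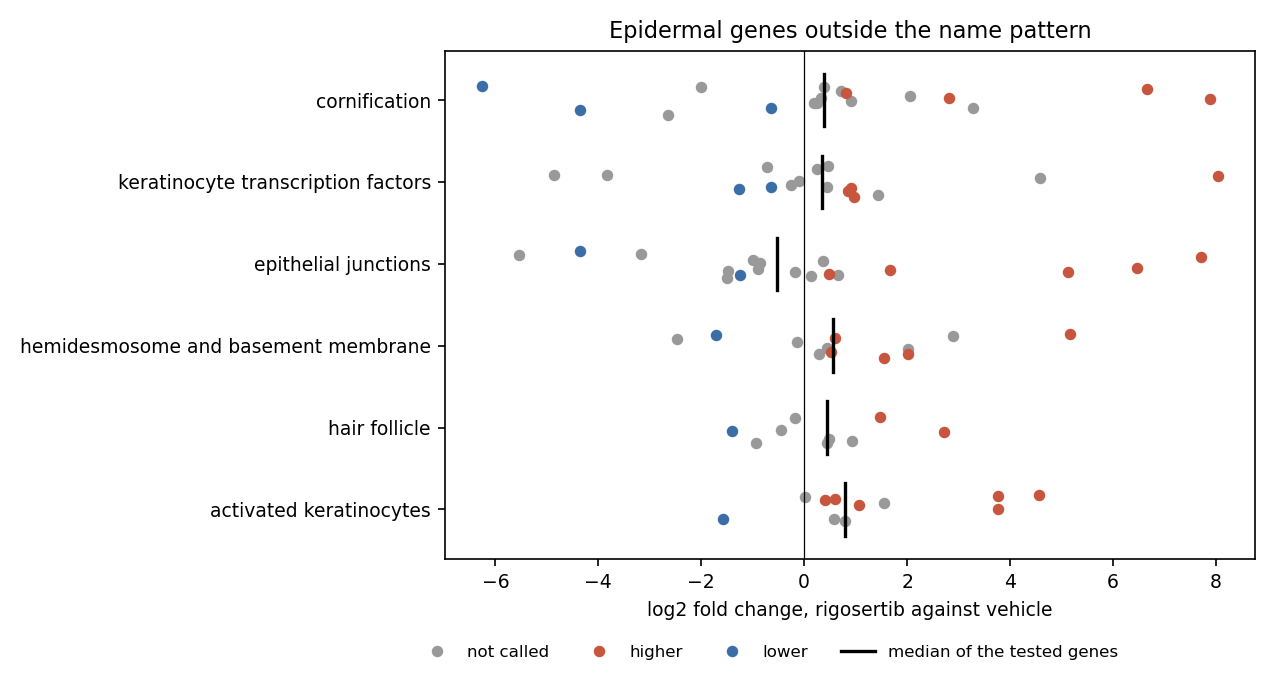
Log2 fold change of RGS against vehicle (horizontal axis) for each tested gene of 6 lists of epidermal genes outside the name pattern, with higher genes in red, lower genes in blue, genes not called in grey and a bar at the median of each list. Each list holds genes in both directions, and the medians lie between -0.52 and 0.79.

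Markers of other cells that a tumor under the skin can hold were counted beside the members. Skeletal muscle (12 genes, 3 tested), adipocyte (8 genes, 2 tested) and melanocyte lists (8 genes, 3 tested) had none called among 8 tested genes by edgeR, by DESeq2 or by voom, 0 of the 8 had an unadjusted p under 0.05 in edgeR, and none of their summed levels separated the groups. The sebaceous list (8 genes, 3 tested) had 1 lower, *Scd1* (log2 fold change -1.07, adjusted p = 1.49e-04). Of the fibroblast list (7 genes, 6 tested) 4 were lower, among them *Pdgfrb* (-2.20, adjusted p = 1.79e-04), and 1 was higher, *Dcn* (3.24, adjusted p = 6.23e-05). The endothelial list (6 genes, 3 tested) had 1 higher, *Cdh5* (3.47, adjusted p = 6.37e-04), and the leukocyte list (10 genes, 2 tested) had 1 higher, *Laptm5* (2.35, adjusted p = 9e-09). The summed CPM of the leukocyte list was 212 to 283 with vehicle and 922 to 1020.4 with RGS, carried by *Laptm5* (176 CPM with vehicle, 900.2 with RGS) and *Cd68* (62.5 and 74.0), with *Ptprc*, *Cd3e*, *Cd8a*, *Itgax* and *Adgre1* at 0 in all 6 tumors. That of the endothelial list was 0.945 to 1.198 with vehicle and 3.24 to 11.3 with RGS, and that of the fibroblast list 404 to 600.5 and 294 to 319.9. Whether these shifts have a part in the levels of the keratin and envelope genes was not tested.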

How the data were processed

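RNA from 6 YUMM3.3 tumors kept in RNAlater was extracted with a Qiagen kit and sequenced on an Illumina instrument as paired-end reads. Per the labels, the submitters' processing notes name cutadapt 1.18, FastQC 0.11.7, STAR 2.7.1a, featureCounts 1.6.4 and the mm10 build. The deposited values are raw counts of reads for each gene, which the authors did not normalize. The strand setting, the handling of reads that fit several genes and the annotation release are not given in the sources used here. Of the 40166 genes in the table, 38927 had identifiers found in GENCODE M21, all with the same start and end there. Of the 102 members, 101 were found. This does not show that M21 was the release used.

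From these deposited counts, the 15355 genes whose median reached 5 counts with vehicle or with RGS were fitted in R 4.3.3 with edgeR 4.0.16 (TMM factors of 0.920 to 1.08, quasi-likelihood F test, Benjamini-Hochberg adjustment over all tested genes, threshold 0.05). Standard errors were obtained by dividing the absolute log2 fold change by the root of F. CPM values use the TMM-scaled library, and CPM per kb divides by the gene length in the table. Permuting 3 against 3 tumors exactly allows a two-sided p of 0.1 at the smallest, so p-values come from the model across genes. A fold against vehicle tumors at 0 was the mean CPM with RGS divided by the mean vehicle floor, set at 3 counts per library. Counts of 13837932 to 32555494 per tumor set these floors. The procedure was tested on simulated data. The check first required the simulated direction in nearly all changed genes and failed, mostly at low counts. It was then limited to called genes, which all had that direction. The share of false calls was slightly above the threshold.

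The members, the gene lists and the tests were chosen with earlier results of these data known, and the lists were written from general knowledge. Named genes were the called members, the 8 members highest in CPM per kb, members above the floor in 1 group only with at least 20 counts in a tumor, up to 4 called genes in each direction of each list by smallest p (the 2 most abundant where none was called), and *Dsg1a*, *Dsg1b*, *Dsg1c*, *Trp63*, *Cdh1* and *Epcam*. Some genes that this rule takes are not reported here. Other members, the other kallikreins and melanocyte genes, *Cd68*, *Cldn1* and *Ocln* were named to account for their classes, after their values were seen. Alternatives were DESeq2 1.42.0, voom with quality weights from limma 3.58.1, other scaling factors, filters and thresholds, robust dispersions, leaving out mitochondrial and ribosomal protein genes, and leaving out each tumor. Rows matching the name pattern that are not protein-coding (3) were left out. Windows of 75 bases and exon overlaps were taken from GENCODE M21, and promoters from RefSeq (GRCm38.p6). These windows are shorter than the paired-end reads the paper describes, so a share of windows is not a share of ambiguous reads.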

Additional observations from a re-analysis of the deposited data

Results flagged for a closer look

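Members that did not pass the filter of the test still had counts over 3 in an RGS tumor and at most 3 in every vehicle tumor, and their highest counts are given here as values outside the comparison. The small proline-rich gene *Sprr2h* reached 35 counts in RGS tumor 10, the envelope precursor *Lor* 30 in RGS tumor 12, and *Sprr2a2* 20 in RGS tumor 11. *Lce3c* reached 7 counts in RGS tumor 10, *Krt15* 5 in RGS tumor 12 and *Krt33b* 4 in RGS tumor 12. *Lor*, *Sprr2h*, *Sprr2a2*, *Lce3c* and *Krt33b* had no count in any vehicle tumor, and *Krt15* had 1, in vehicle tumor 7. Most of these counts sit in a single tumor. The main test left these genes out because their median was under 5 counts in each group, and only the alternative with no filter on low counts was sure to include them. Of the 75-base windows of *Sprr2a2*, 94.7% occur in its neighboring copies, and for *Lce3c* the share was 28.0%.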

How the results depend on the processing

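The 8 members called higher numbered 6 to 10 over all alternatives, and *Krt20*, *Sprr1a*, *Ivl*, *Krt12*, *Krt76* and *Krt16* were called in each of the 15 other fits. The 1 member called lower, *Krt80*, became 0 at an adjusted p under 0.01, and the count was 0 to 1 when single tumors were left out. The 26 epidermal genes called higher outside the name pattern became 16 at an adjusted p under 0.01, 17 when a log2 change of 1 or more in either direction was also required, and 17 to 27 when single tumors were left out, with 17 without vehicle tumor 8. The 9 called lower numbered 6 to 13. Over single genes, 918 of 989 values kept direction and side of the threshold, 56 lost the call, 5 gained it and 10 changed sign. No gene that changed sign was called. *Pkp1* was at -0.053 with library size only, at -0.30 with voom and between -0.45 and 0.56 when single tumors were left out. Leaving out single tumors gave -1.34 to 1.52 for *Evpl*, -0.39 to 1.08 for *Krt19* and -0.47 to 0.17 for *Mylpf* (log2 fold changes). Scaling by library size only moved the median of all genes by -0.14, more than any other scaling. The cause of these changes was not tested.

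No paired analysis was possible, because neither the labels nor the paper give a pairing of vehicle tumors (7 to 9) with RGS tumors (10 to 12). Depth limits the silent members: a gene at 0 can still have been present below the floor, which was highest, at 0.226 CPM, in RGS tumor 11.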
